A study of Mus musculus with 15 samples.

Results

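The 10 Wnt ligand genes described here are *Wnt2*, *Wnt4*, *Wnt5a*, *Wnt5b*, *Wnt7a*, *Wnt7b*, *Wnt10a*, *Wnt10b*, *Wnt11*, and *Wnt16*. They were chosen by gene symbol, as every non-control probe that the array files named for 1 of these genes. They are 10 of the 27962 distinct gene names on the array. The rule found 11 of 41174 probes, because *Wnt5b* had 2 probes and each other gene had 1. All 10 genes passed the filter on dim probes, and the array accession of all 10 matched the same symbol in RefSeq. The microarrays measured uterine RNA after 17β-estradiol (E2) or estriol (E3), an estrogen that carries an additional hydroxyl group on its D ring. The series asked how the uterine transcript response to E3, a weak estrogen, differs from that to E2. There were 3 arrays, each from a single uterus, in each of 5 groups: saline vehicle at 24 hr, E2 at 2 hr, E3 at 2 hr, E2 at 24 hr, and E3 at 24 hr.

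All mice were adult females, 10 weeks old or more, that had been ovariectomized and rested for 10 to 14 days before a single intraperitoneal injection of 100 µl saline, alone or with 250 ng of E2 or E3. The E2 2 hr mice were labeled as strain C57bl6/Jx129 with WT *Esr1*. The other 4 groups were labeled as strain C57bl6/J, and their labels gave no *Esr1* genotype. The E2 2 hr arrays were also read on a different scanner, slides, and day from the other 12 arrays, so the compound and these differences cannot be told apart in any comparison that uses them. The saline, E2 24 hr, and E3 24 hr arrays shared no slide with each other. Slide and group therefore cannot be told apart in comparisons among these 3 groups, including that of E3 with E2 at 24 hr. The vehicle was collected at 24 hr only, so at 2 hr the time after injection and the estrogen cannot be told apart either.

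Wnt proteins are secreted, lipid-modified ligands that bind Frizzled receptors on the same or neighboring cells. Canonical ligands act with the coreceptors Lrp5 and Lrp6 to stabilize beta-catenin, which then activates genes with TCF/LEF factors. Non-canonical ligands act on cell polarity, movement, and calcium instead. In the mouse reproductive tract, Wnt4, Wnt5a, and Wnt7a are known for their roles in the formation of the Müllerian duct, the growth and patterning of the tract, and the signaling between epithelium and stroma.

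Values are log2 signals relative to the 75th percentile of the same array, so 0 marks a probe at that percentile and a step of 1 is a doubling. A change was called when limma gave a p-value below 0.001 and the change was at least 2-fold. Adjusted p-values are Benjamini-Hochberg values over all probes tested. A level cannot be compared between probes, so genes are compared by their changes only. The array 75th percentiles lay between 2989 and 4412 intensity units. In whole tissue, fewer cells of a type and less RNA per cell cannot be told apart.

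Markers of the uterine cell types were present, and several of these lists moved with the groups. The mean of 8 stroma markers lay at 3.59 to 3.70 on the saline arrays, 2.57 to 3.11 on the 6 arrays at 2 hr, and 3.70 to 3.97 on the 6 arrays at 24 hr. The mean of 9 epithelium markers lay at 2.00 to 2.29 with saline, 1.36 to 1.91 on the 6 arrays at 2 hr, 2.88 to 2.98 with E2 at 24 hr, and 2.45 to 2.61 with E3 at 24 hr. The 5 endothelium markers averaged 1.26 to 1.30 with saline and 0.84 to 0.93 with E2 at 24 hr, with 0.84 to 1.56 in the other groups. The 7 myometrium markers averaged 4.28 to 4.57 on the arrays of saline and 2 hr and 4.99 to 5.38 on those of 24 hr. Transcripts of other tissues and neighboring organs were present as well. The 6 skeletal muscle markers averaged -3.81 to -3.56 with saline, -4.85 to -4.40 with E2 at 2 hr, and -4.04 to -3.97 with E3 at 2 hr. At 24 hr they averaged -3.16 to -2.90 with E2 and -3.29 to -3.22 with E3. The 8 liver markers averaged -1.85 to 0.03 on the saline arrays and -8.19 to -7.83 on the E2 2 hr arrays, with the other groups between -5.07 and -2.42. The 7 exocrine pancreas markers that passed the filter averaged -6.59 to -4.58 on 11 arrays, and 6.06 and 0.10 on E3 2 hr arrays 2 and 3 and 4.84 and -0.99 on E2 24 hr arrays 2 and 3. The part of these differences in the Wnt results was not tested. Ligand changes without the 4 pancreas-rich arrays are given for several comparisons.

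**Figure D1:**
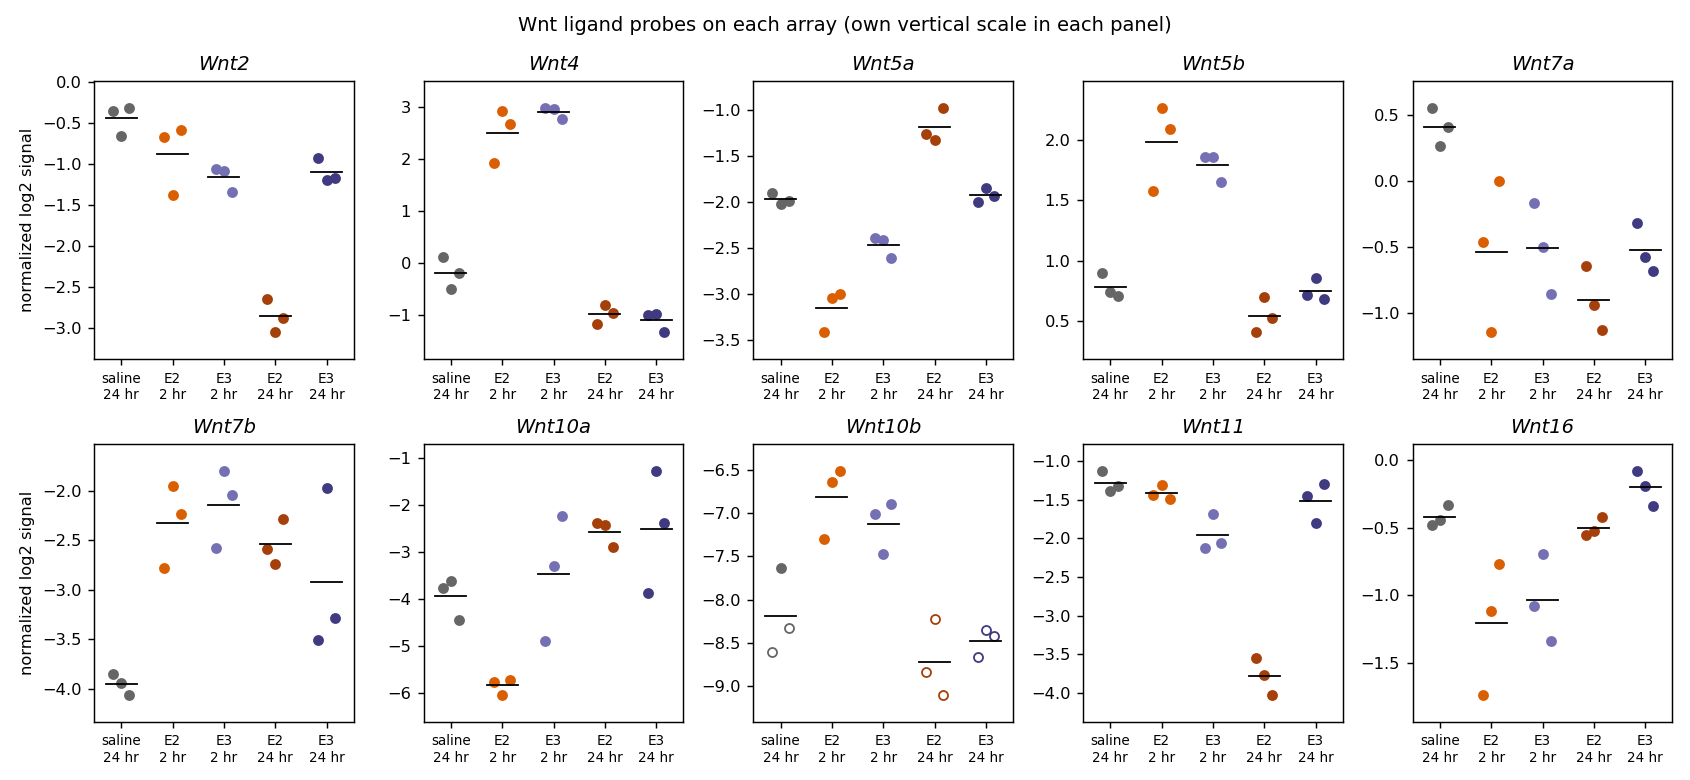
Normalized log2 signal (vertical axis, its own scale in each panel) of the representative probe of each ligand on the 15 arrays, by group. Points are arrays, open points are values not well above background, and bars are means of 3 arrays. *Wnt4* lay between 1.92 and 2.99 on all arrays at 2 hr and between -1.33 and 0.12 on the others, while *Wnt2* and *Wnt11* were lowest with E2 at 24 hr.

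At 2 hr, E2 was associated with a rise of *Wnt4*, *Wnt5b*, and *Wnt7b* and a fall of *Wnt5a*. *Wnt10b* was also called higher with E2, but it passed the filter on dim probes only through the groups at 2 hr, where it was high. The filter thus favored a difference, and this call is not taken as support for one. E3 at 2 hr gave a rise of *Wnt4*, *Wnt5b*, and *Wnt7b*, with no ligand called lower. With E2, 5 of the 10 ligands were thus called, *Wnt10b* included, against 21.2% of all probes. Of these, 4 were higher (10.6% of all probes) and 1 was lower (10.7% of all probes). With E3, 3 of 10 were called, against 13.8% of all probes, and all 3 were higher (4.68% of all probes). None was lower with E3 (9.11% of all probes), although 5 had a log2 fold change below 0 with an unadjusted p-value under 0.05 in limma, as did 34.2% of all probes. The median log2 fold change of the 10 ligands was -0.28 with E2 and -0.01 with E3, beside -0.08 and -0.11 over all probes tested. Without the 4 pancreas-rich arrays, 1 E3 2 hr array is left and is assumed to vary like the other groups. None of the 4 is an E2 2 hr or saline array, so the E2 changes stay the same and only the spread pooled over all groups differs. Lost calls are given with the ligands.

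*Wnt4*, a ligand needed for the Müllerian duct and for the stromal reaction to an embryo, had the largest early rise of the 10. The array headers place its 60-base probe at chr4:136674216-136674784 (mm7, plus strand), a span of 569 bases, so the probe joins exons across an intron of *Wnt4*. It is shown in lower case because no base is singled out.
Wnt4 probe: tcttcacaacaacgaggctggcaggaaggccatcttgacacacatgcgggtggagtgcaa
The saline arrays read 0.12, -0.49, and -0.20. The E2 2 hr arrays read 1.92, 2.93, and 2.67, and the E3 2 hr arrays read 2.99, 2.97, and 2.77. Every array at 2 hr lay above every saline array, and the lowest of the 6 was E2 array 1. The change was 6.49-fold with E2 (log2 2.70 ± 0.231, SE, n = 3 arrays per group; adjusted p = 9.85e-07 in limma) and 8.58-fold with E3 (SE 0.231 on the log2 scale; adjusted p = 6.48e-07 in limma). When the 4 pancreas-rich arrays were left out, E3 array 1 alone gave a log2 change of 3.18, still called. Saline array 3 and all E3 2 hr arrays shared a slide. With slide as a block, which sets saline array 3 alone against the E3 arrays, the log2 change was 3.11.

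*Wnt5b*, the closest relative of *Wnt5a* among the ligands, also rose early with both compounds. Its brighter probe read 0.89, 0.74, and 0.71 with saline, 1.58, 2.26, and 2.09 with E2 at 2 hr, and 1.86, 1.85, and 1.65 with E3 at 2 hr. All 6 arrays at 2 hr were above the 3 saline arrays. The log2 fold change was 1.20 ± 0.152 with E2 (2.29-fold, adjusted p = 2.42e-05 in limma) and 1.01 ± 0.152 with E3 (2.01-fold, adjusted p = 0.000152). The other *Wnt5b* probe gave 1.00 ± 0.125 with E2 and 1.11 ± 0.125 with E3, both called, so the probes had the same direction. The E3 change sat at the 2-fold limit, and it was not called under quantile normalization (0.99), under scaling by probes well above background on all arrays (0.97), without saline array 2 or 3 or E3 array 1 or 2 (0.97 to 1.08 over all single omissions), or without the 4 pancreas-rich arrays (1.08).

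*Wnt7b*, a canonical ligand of epithelia, read -3.85, -3.94, and -4.06 with saline. It read -2.78, -1.96, and -2.24 with E2 at 2 hr and -2.58, -1.80, and -2.05 with E3 at 2 hr. No array at 2 hr overlapped the saline arrays. The rise was 3.08-fold with E2 (log2 1.63 ± 0.351, adjusted p = 0.00148 in limma) and 3.50-fold with E3 (log2 1.81 ± 0.351, adjusted p = 0.00099). These calls rested on few arrays: leaving out any 1 saline array, or E2 array 2 or 3, ended the call with E2, with log2 fold changes between 1.44 and 1.85 over all single omissions. Leaving out saline array 3, or E3 array 2 or 3, ended the call with E3 (1.64 to 2.03). With slide as a block, which sets saline array 3 alone against the E3 arrays, the E3 change was 1.92, also not called. Both calls were also lost without the 4 pancreas-rich arrays. None of those arrays is in the E2 2 hr or saline group, so the E2 change stayed at 1.63 and only the pooled spread differed. With E3, array 1 alone was left at 2 hr and gave a log2 change of 1.37.

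*Wnt10b*, a canonical ligand known for favoring bone over fat formation, was measured near the limit of the arrays. It was well above background on 1 of 3 saline arrays, on all 6 arrays at 2 hr, and on none of the 6 arrays at 24 hr. Its fitted differences from saline are therefore against values mostly not well above background, and no bound on the fold could be given. The saline arrays read -8.61, -7.63, and -8.33, the E2 2 hr arrays -7.29, -6.63, and -6.50, and the E3 2 hr arrays -7.00, -7.48, and -6.89. The groups at 2 hr lay above the saline group with no overlap. The log2 fold change was 1.38 ± 0.295 with E2 (adjusted p = 0.00138 in limma), which was called, and 1.07 ± 0.295 with E3 (adjusted p = 0.0095), which was not. The E2 call was lost when saline array 1 or 3 or E2 array 2 or 3 was left out (1.17 to 1.66 over all single omissions), in a fit of only the 6 arrays compared, without the 4 pancreas-rich arrays, and with normexp background correction (0.34). The pancreas-rich arrays are in neither group, so that omission left the change at 1.38 and altered only the pooled spread.

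*Wnt5a*, a ligand needed for the outgrowth of the genital tract and mainly made by stroma, moved against *Wnt5b* at 2 hr. Its 60-base probe lies at chr14:25948244-25952114 (mm7, plus strand), a span of 3871 bases that also joins exons, and is shown for comparison with that of *Wnt4*.
Wnt5a probe: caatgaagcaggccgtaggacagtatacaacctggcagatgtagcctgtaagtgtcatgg
The saline arrays read -1.90, -2.02, and -1.99, and the E2 2 hr arrays read -3.42, -3.05, and -3.00. All 3 E2 arrays lay below the saline arrays, and *Wnt5a* fell by 1.19 on the log2 scale (2.28-fold, SE 0.123, adjusted p = 4.77e-06 in limma). The E3 2 hr arrays read -2.40, -2.41, and -2.62, also below the saline arrays without overlap, but the difference of -0.51 ± 0.123 (adjusted p = 0.0046 in limma) was not called. The stroma markers were lower on the same 6 arrays: 3 of 8 were called lower with E2 and 3 of 8 with E3, beside 10.7% and 9.11% of all probes, and the part of this in the *Wnt5a* values was not tested.

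The other 5 ligands had no called change at 2 hr. *Wnt7a*, the epithelial ligand that patterns the uterus and supports its glands, had log2 differences of -0.95 ± 0.256 with E2 and -0.92 ± 0.256 with E3 (adjusted p = 0.00645 and 0.0102 in limma). The mean of the epithelium markers was below every saline array on the same 6 arrays, and its part in these values was not tested. *Wnt16*, known from bone, had -0.79 ± 0.210 with E2 and -0.62 ± 0.210 with E3. For *Wnt7a* and *Wnt16*, no array at 2 hr overlapped the saline arrays. Both were called with E2 when E2 2 hr array 3 was left out. *Wnt2*, known from lung and placenta, had -0.43 ± 0.194 with E2 and -0.71 ± 0.194 with E3, and *Wnt11*, known from kidney branching and cell movement, had -0.14 ± 0.161 and -0.68 ± 0.161. With E2, the arrays of *Wnt2* and *Wnt11* overlapped the saline arrays.

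*Wnt10a*, a ligand of tooth and skin appendages, varied most among arrays of 1 group. It read -3.78, -3.62, and -4.45 with saline, -5.76, -6.04, and -5.72 with E2 at 2 hr, and -4.89, -3.30, and -2.23 with E3 at 2 hr. The E2 2 hr arrays were the lowest of all 15 and close to each other, while the E3 2 hr arrays spread widely and overlapped the saline arrays. The log2 differences from saline were -1.90 ± 0.650 with E2 (adjusted p = 0.0229 in limma) and 0.48 ± 0.650 with E3 (adjusted p = 0.579), and neither was called. The E2 difference was called in a fit of only the 6 arrays compared, and at an adjusted p-value below 0.05 with at least 2-fold.

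**Figure D2:**
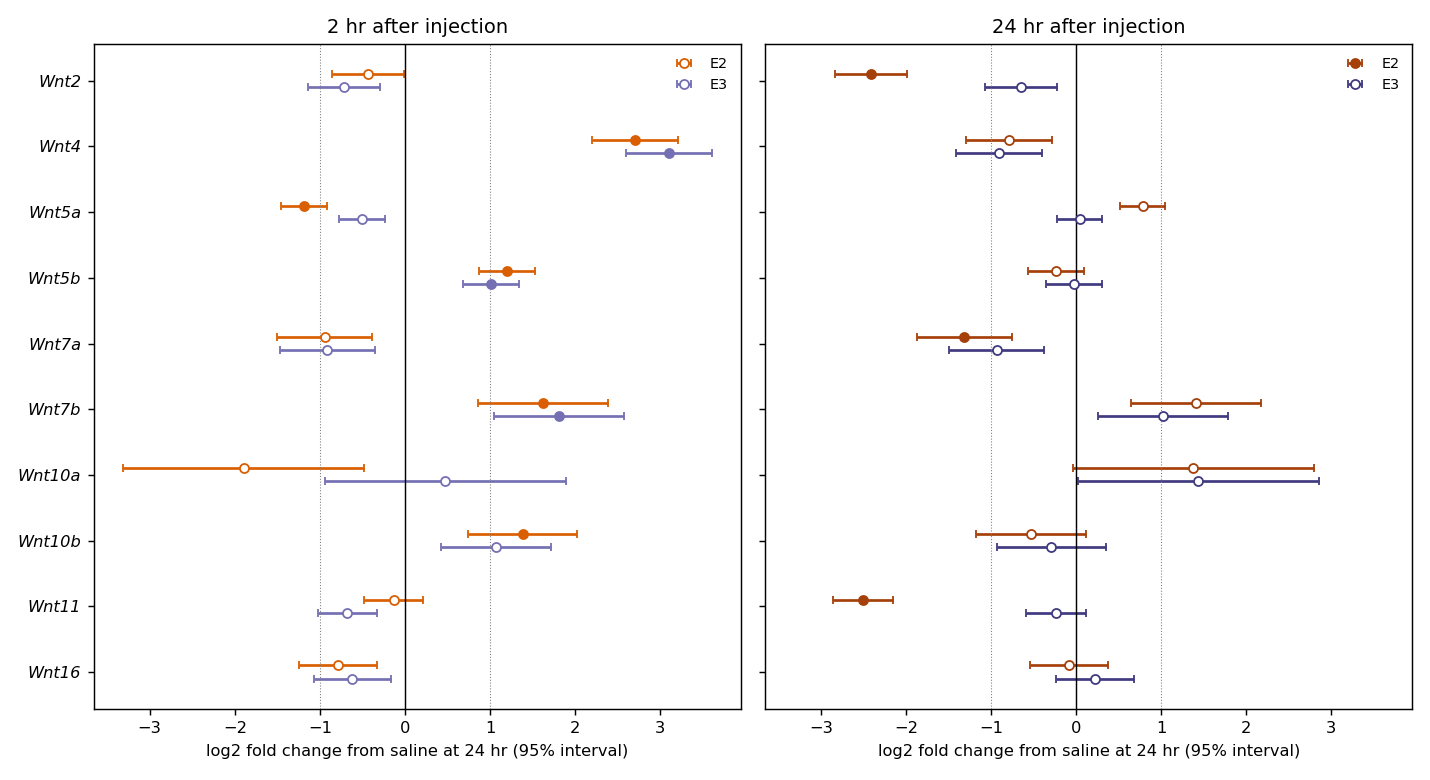
Log2 fold change of each ligand from saline (horizontal axis) at 2 hr (left) and 24 hr (right) with 95% intervals from limma, for E2 and E3, with 3 arrays per group. Filled points are called, open points are not, and dotted lines mark 2-fold. The called changes at 2 hr include *Wnt4*, 6.49-fold with E2 and 8.58-fold with E3, and those at 24 hr are *Wnt2*, *Wnt7a*, and *Wnt11* with E2.

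At 24 hr, *Wnt2*, *Wnt7a*, and *Wnt11* fell with E2 and no ligand was called with E3. The 3 ligands called with E2 compare with 18.1% of all probes; 3 were lower (11.1% of all probes) and 0 were higher (6.94% of all probes), with 2 higher at an unadjusted p-value under 0.05 in limma, as were 29.1% of all probes. With E3, 0 of 10 were called, against 3.81% of all probes, with 1.85% called higher and 1.96% called lower. In that comparison 5 ligands had an unadjusted p-value under 0.05 in limma, 2 higher and 3 lower, beside 44.4% of all probes (20.3% higher and 24.1% lower). The median log2 fold change of the ligands was -0.39 with E2 and -0.13 with E3, beside -0.06 and -0.01 over all probes. Without the 4 pancreas-rich arrays, 1 E2 24 hr array is left and is assumed to vary like the other groups. The changes without them are given with the 3 ligands called.

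*Wnt11* had the largest late fall. The saline arrays read -1.12, -1.39, and -1.32, the E2 24 hr arrays -3.55, -3.77, and -4.03, and the E3 24 hr arrays -1.45, -1.80, and -1.29. The E2 24 hr arrays lay more than 1 log2 unit below every other array of the series, and the E3 24 hr arrays overlapped the saline arrays. *Wnt11* fell by 2.51 on the log2 scale with E2 (5.68-fold, SE 0.161, adjusted p = 3.24e-07 in limma), and the difference with E3 was -0.24 ± 0.161 (adjusted p = 0.278). The call with E2 held without each array in turn (-2.62 to -2.38) and, at -2.28, without the pancreas-rich arrays.

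*Wnt2* followed with similar values. The saline arrays read -0.36, -0.67, and -0.32, the E2 24 hr arrays -2.65, -3.05, and -2.87, and the E3 24 hr arrays -0.93, -1.19, and -1.17. The 3 E2 arrays were the lowest of the 15, and the E3 arrays lay between them and saline without overlap on either side. *Wnt2* fell by 2.41 with E2 (5.31-fold, SE 0.194, adjusted p = 1.23e-06 in limma), and the E3 difference of -0.65 ± 0.194 (adjusted p = 0.0225) was not called. Without the pancreas-rich arrays the E2 change was -2.20 and was still called.

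*Wnt7a* read 0.56, 0.27, and 0.41 with saline, -0.64, -0.94, and -1.13 with E2 at 24 hr, and -0.32, -0.57, and -0.68 with E3 at 24 hr. Both treated groups lay below saline without overlap, and they overlapped each other. *Wnt7a* fell by 1.31 with E2 (2.49-fold, SE 0.256, adjusted p = 0.000775 in limma), whereas -0.93 ± 0.256 with E3 (adjusted p = 0.0148) was not called. The E2 call was lost when saline array 1 or 3 or E2 array 2 or 3 was left out (-1.45 to -1.20), and without the pancreas-rich arrays (-1.05, adjusted p = 0.049 in limma). The epithelium markers moved the other way with E2 at 24 hr, with 4 of 9 called higher and 0 lower, beside 6.94% and 11.1% of all probes. The part of this in the *Wnt7a* values was not tested.

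Among the ligands with early rises, *Wnt4* was below saline on every array at 24 hr. It read -1.17, -0.80, and -0.97 with E2 and from -1.33 to -0.98 over the 3 E3 arrays, with no overlap with saline. The log2 differences of -0.79 ± 0.231 with E2 and -0.91 ± 0.231 with E3 (adjusted p = 0.0104 and 0.0102 in limma) were not called. *Wnt5b* lay within 0.24 log2 units of saline with either compound.

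*Wnt7b* remained above saline at 24 hr, with -2.59, -2.74, and -2.28 with E2 and -3.51, -1.98, and -3.29 with E3. E3 array 2 lay well above the other E3 arrays. The log2 differences were 1.41 ± 0.351 with E2 (adjusted p = 0.00393 in limma) and 1.03 ± 0.351 with E3 (adjusted p = 0.0402), both uncalled. The E2 difference was called under quantile normalization, with no scaling between arrays, in a fit of only the 6 arrays compared, with a replicate block, and without E3 24 hr array 2. The same E3 array 2 was the highest of all 15 for *Wnt10a*, which read -2.39, -2.43, and -2.90 with E2 at 24 hr and -3.87, -1.27, and -2.39 with E3 at 24 hr, with uncalled differences of 1.37 ± 0.650 and 1.44 ± 0.650.

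*Wnt5a* read -1.26, -1.33, and -0.98 with E2 at 24 hr, above all saline arrays, and -2.01, -1.85, and -1.93 with E3, overlapping them. The E2 difference of 0.78 ± 0.123 had an adjusted p of 0.000165 in limma but was below 2-fold. The difference with E3 was 0.04 ± 0.123. *Wnt16* differed from saline by -0.08 ± 0.210 with E2 and 0.22 ± 0.210 with E3, and *Wnt10b* was not well above background on any 24 hr array, so no fold change from saline is given for it.

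E3 and E2 were compared at the same dose and time in 20 pairs, 10 ligands at each of 2 times. At 2 hr no ligand was called (7.37% of all probes were), and in limma 3 had an unadjusted p-value under 0.05, beside 51.4% of all probes. At 24 hr *Wnt2* and *Wnt11* were called, both higher with E3, against 4.85% of all probes. The E3 minus E2 difference at 24 hr was 1.76 for *Wnt2* (95% interval 1.34 to 2.18, adjusted p = 5.41e-05 in limma) and 2.27 for *Wnt11* (1.92 to 2.62, adjusted p = 4.8e-06). Without the 4 pancreas-rich arrays these differences were 1.55 and 2.04, both still called, but the *Wnt2* call was lost when saline array 1, the next in pancreas level, was left out as well.

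*Wnt5a* differed between the compounds in opposite directions at the 2 times, below the 2-fold limit at each. The E3 minus E2 difference was 0.68 at 2 hr (95% interval 0.41 to 0.95, adjusted p = 0.000935 in limma) and -0.74 at 24 hr (-1.01 to -0.47, adjusted p = 0.000721). The arrays of the compounds did not overlap at either time. The 2 hr difference for *Wnt11* was -0.54 (-0.89 to -0.19, adjusted p = 0.0173 in limma) and that for *Wnt10a* was 2.37 (0.96 to 3.79, adjusted p = 0.0113), neither called.

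For *Wnt4* the difference between the compounds was 0.40 at 2 hr (95% interval -0.10 to 0.91) and -0.12 at 24 hr (-0.62 to 0.38), so a difference of either sign, up to nearly 2-fold at 2 hr, lies within the interval. The intervals for *Wnt7b* were -0.58 to 0.95 at 2 hr and -1.15 to 0.38 at 24 hr. Those for *Wnt7a* were -0.53 to 0.59 and -0.18 to 0.94, and those for *Wnt5b* were -0.52 to 0.14 and -0.12 to 0.54. The interval for *Wnt16* was -0.29 to 0.63 at 2 hr and -0.16 to 0.76 at 24 hr. *Wnt10b* had -0.96 to 0.33 at 2 hr and was not well above background with either compound at 24 hr, and *Wnt10a* at 24 hr had -1.35 to 1.48.

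**Figure D3:**
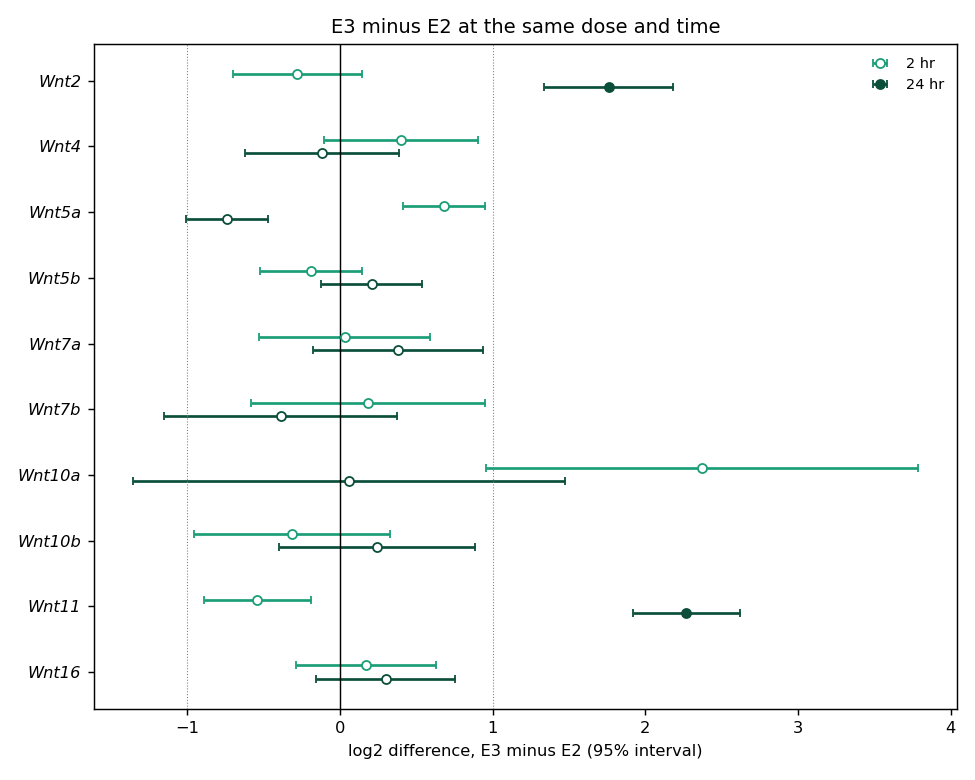
E3 minus E2 difference in log2 signal for each ligand (horizontal axis) at 2 and 24 hr, with 95% intervals from limma and 3 arrays per group. Filled points are called and dotted lines mark 2-fold. *Wnt2* at 1.76 and *Wnt11* at 2.27, both at 24 hr, are the called differences, and the intervals of *Wnt5a* exclude 0 on opposite sides at the 2 times.

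The change of the E3 minus E2 difference from 2 to 24 hr was called for 3 of 10 ligands, against 15.5% of all probes. It was 2.81 ± 0.228 for *Wnt11* (adjusted p = 7.29e-06 in limma), 2.04 ± 0.275 for *Wnt2* (adjusted p = 0.000118), and -1.42 ± 0.175 for *Wnt5a* (adjusted p = 6.57e-05). The E2 2 hr arrays enter this comparison, and their strain, slides, scanner, and scan day cannot be told apart from it. For *Wnt4*, *Wnt5b*, and *Wnt7b* the change was -0.52 ± 0.327, 0.40 ± 0.215, and -0.57 ± 0.496, none called. Without the 4 pancreas-rich arrays *Wnt2* was no longer called (1.73, adjusted p = 0.0242 in limma), and *Wnt11* and *Wnt5a* were.

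Between 2 and 24 hr of the same compound, 7 of 10 ligands were called with E2 (31.1% of all probes) and 3 of 10 with E3 (16.1% of all probes). The saline arrays enter these comparisons only through the pooled spread. *Wnt4* fell with both compounds, with log2 changes of -3.49 with E2 and -4.01 with E3 (SE 0.231 for each; adjusted p = 6.47e-08 and 7.94e-08 in limma). *Wnt5b* fell with both compounds as well, with log2 changes of -1.43 and -1.04. *Wnt10b* is among the called ligands of both comparisons, but it passed the filter only through the groups at 2 hr, which favored lower values at 24 hr. As a description under the deposited background correction, *Wnt10b* was at least 2.43-fold lower at 24 hr with E2 and at least 1.67-fold lower with E3. The bound takes the lowest signal well above background for the 24 hr arrays, and it does not hold with normexp correction. The E3 call was lost without E3 2 hr array 1 or 3 or any 1 of the E3 24 hr arrays (-1.54 to -1.24), and with normexp background correction the fitted E3 difference turned to 1.03 and the E2 difference was -0.34, neither called.

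With E2, *Wnt11* and *Wnt2* fell from 2 to 24 hr, with log2 changes of -2.37 and -1.98, while *Wnt5a* rose by 1.97 ± 0.123 (adjusted p = 4.22e-08 in limma). *Wnt10a* rose by 3.27 ± 0.650 (adjusted p = 0.00064), a call that was lost when any 1 of the 3 E2 2 hr arrays or E2 24 hr array 1 or 2 was left out. With E3, the corresponding differences were 0.44 for *Wnt11*, 0.06 for *Wnt2*, 0.55 for *Wnt5a*, and 0.96 for *Wnt10a*, none called. By the test of the change between compounds, the *Wnt10a* difference was not called (-2.31 ± 0.919, adjusted p = 0.0572 in limma). Without the 4 pancreas-rich arrays, array 1 alone was left at 24 hr with E2 and at 2 hr with E3. The calls then lost were *Wnt10a* with E2 and *Wnt5b* and *Wnt10b* with E3.

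The order of the 5 group means differed from ligand to ligand, and many neighbors in it did not differ beyond the spread of their arrays. For *Wnt4* it ran from E3 2 hr and E2 2 hr, whose arrays overlapped, to saline and then to E2 24 hr and E3 24 hr, which overlapped each other. For *Wnt5b* it ran from E2 2 hr and E3 2 hr, which overlapped, to saline, E3 24 hr, and E2 24 hr, of which neighbors overlapped. For *Wnt10b* E2 2 hr and E3 2 hr, which overlapped, lay above the other 3 groups, whose values were mostly at background and were not ordered. For *Wnt5a* it ran from E2 24 hr to E3 24 hr and saline, which overlapped, then E3 2 hr and E2 2 hr, each separate from its neighbors.

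For both *Wnt2* and *Wnt11* the order was saline, E2 2 hr, E3 24 hr, E3 2 hr, and E2 24 hr, in which the first 4 overlapped from neighbor to neighbor and only E2 24 hr stood apart. For *Wnt7a* saline stood above the 4 treated groups, which overlapped in the order E3 2 hr, E3 24 hr, E2 2 hr, and E2 24 hr. For *Wnt7b* saline stood below them, in the order E3 2 hr, E2 2 hr, E2 24 hr, and E3 24 hr. For *Wnt16* the groups at 2 hr lay below E3 24 hr, saline, and E2 24 hr, and for *Wnt10a* E2 2 hr lay below E3 24 hr, E2 24 hr, E3 2 hr, and saline, with overlap among the other neighbors.

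Canonical and non-canonical ligands were also set against each other. *Wnt2*, *Wnt7a*, *Wnt7b*, *Wnt10a*, and *Wnt10b* were taken as canonical and *Wnt5a*, *Wnt5b*, and *Wnt11* as non-canonical, and *Wnt4* and *Wnt16*, which can signal either way, stayed out of both. At 2 hr with E2, *Wnt7b* was the canonical ligand that rose, leaving aside *Wnt10b*, whose call the filter favored. Of the non-canonical ligands *Wnt5b* rose and *Wnt5a* fell. Of all probes, 10.6% were called higher and 10.7% lower in that comparison. At 24 hr with E2, 2 of 5 canonical ligands (*Wnt2*, *Wnt7a*) and 1 of 3 non-canonical ligands (*Wnt11*) were called lower, beside 11.1% of all probes. None was called higher, beside 6.94% of all probes.

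The mean change from saline over the 5 canonical ligands minus that over the 3 non-canonical ligands is given as a description, with no test. It was -0.01 ± 0.28 log2 units with E2 at 2 hr (SD, n = 3 arrays), where the arrays read 0.10, -0.33, and 0.19. It was 0.40 ± 0.30 with E3 at 2 hr (0.15, 0.32, and 0.74), 0.36 ± 0.11 with E2 at 24 hr (0.45, 0.39, and 0.24), and 0.19 ± 0.42 with E3 at 24 hr (-0.14, 0.66, and 0.06). The saline arrays read -0.09, 0.17, and -0.08 around their own mean. The E2 24 hr arrays were the only treated group in which every array lay above every saline array. There the class means were -0.29 ± 0.12 and -0.65 ± 0.02, so both means were below saline. The canonical mean includes *Wnt10b*, which was not well above background at 24 hr.

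The contrast depended on the background correction and on which ligands were counted. With normexp correction it was -0.20 ± 0.25 with E2 and 0.15 ± 0.22 with E3 at 2 hr, and 0.37 ± 0.11 with E2 and 0.57 ± 0.47 with E3 at 24 hr. With *Wnt4* and *Wnt16* counted as canonical the E2 2 hr value was 0.28, and with both counted as non-canonical it was -0.41. With *Wnt10b* left out, a choice made after seeing the data, it was -0.37 ± 0.35 with E2 and 0.22 ± 0.34 with E3 at 2 hr, and 0.42 ± 0.13 with E2 and 0.30 ± 0.48 with E3 at 24 hr. With *Wnt7a*, *Wnt7b*, and *Wnt10a* set against *Wnt5a* and *Wnt11*, it was 0.26 ± 0.24 with E2 and 1.05 ± 0.45 with E3 at 2 hr, and 1.35 ± 0.07 with E2 and 0.61 ± 0.73 with E3 at 24 hr. The highest E3 2 hr and E3 24 hr arrays of the contrast were those in which *Wnt10a* was highest within its group.

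**Figure D4:**
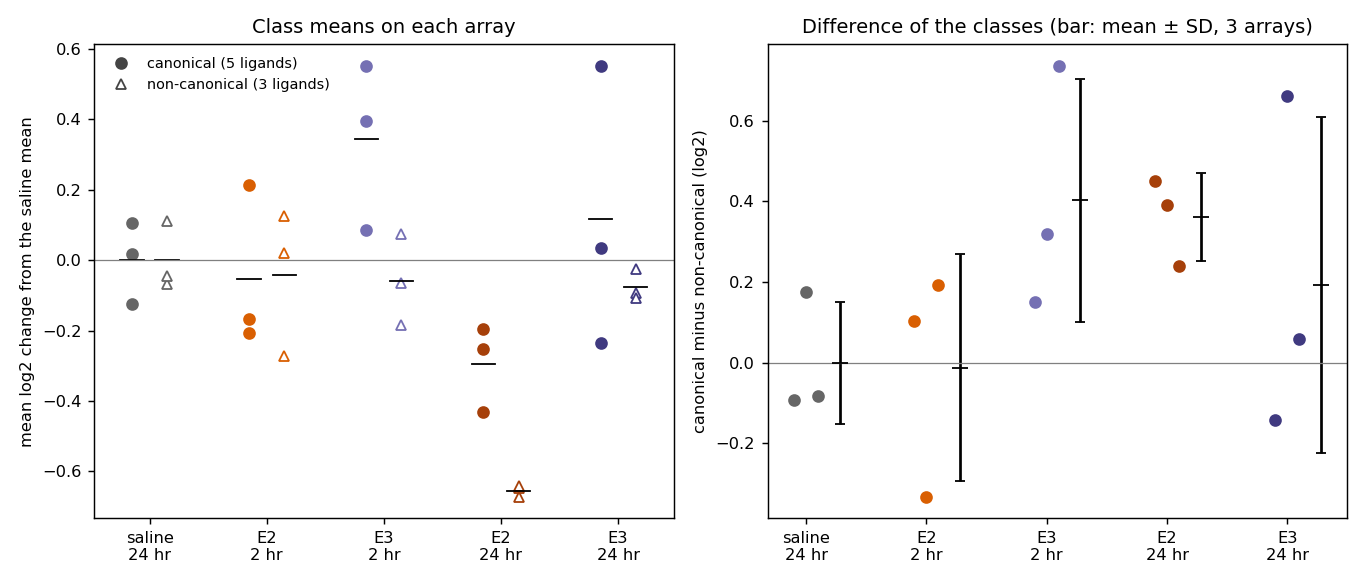
Left, mean log2 change from the saline mean over 5 canonical (circles) and 3 non-canonical (triangles) ligands on each array, with bars at group means. Right, the difference of the class means on each array with its mean and SD over 3 arrays; with E2 at 24 hr all 3 arrays lay between 0.24 and 0.45, and the other treated groups spread more widely.

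The upstream sequence of ligands that moved together is shown with the motifs a search found. The RefSeq promoter table (GRCm38.p6) held entries for 7 of the 10 ligands. The search covered the 250 bases before each transcription start, on both strands, for the GC box GGGCGG, which Sp1-type factors bind, the estrogen response element palindrome GGTCANNNTGACC, a single arm of that palindrome GGTCA, the AP-1 site TGANTCA, and the TCF/LEF core CTTTG. The palindrome contains the single arm, and no other motif of the list contains another. Of the 32851 promoters in the table, 32.7% held a GC box, 0.0639% the palindrome, 35.2% a single arm, 6.75% an AP-1 site, and 48.6% a TCF/LEF core. Capitals mark the matches. The first pair of sequences belongs to *Wnt4* and *Wnt5b* (the entry farthest upstream of its 3), which rose at 2 hr, at chr4:137277385-137277634 (plus strand) and chr6:119544348-119544597 (minus strand).
Wnt4 promoter: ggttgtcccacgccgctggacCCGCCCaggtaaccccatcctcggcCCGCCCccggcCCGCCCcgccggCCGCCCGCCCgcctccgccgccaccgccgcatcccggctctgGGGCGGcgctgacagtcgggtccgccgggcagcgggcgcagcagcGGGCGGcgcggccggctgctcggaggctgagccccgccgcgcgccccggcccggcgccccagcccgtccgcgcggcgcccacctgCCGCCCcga
Wnt5b promoter: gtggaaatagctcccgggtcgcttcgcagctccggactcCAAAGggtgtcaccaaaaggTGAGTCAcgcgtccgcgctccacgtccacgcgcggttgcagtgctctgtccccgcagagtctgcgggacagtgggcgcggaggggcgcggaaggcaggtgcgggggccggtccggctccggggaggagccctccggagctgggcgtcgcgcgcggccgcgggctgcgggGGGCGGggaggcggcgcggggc
*Wnt4* held 8 GC boxes and no match to the other motifs. The *Wnt5b* entry shown held 1 GC box, 1 AP-1 site, and 1 TCF/LEF core. Its other entries held 1 single arm each and no AP-1 site, with 0 GC boxes in one and 2 GC boxes and 2 TCF/LEF cores in the other. The palindrome was found in none of the 10 member entries. The other pair of sequences belongs to *Wnt2* at chr6:18030446-18030695 (minus strand) and *Wnt11* at chr7:98834862-98835111 (plus strand, the farther upstream of its 2 entries), which fell at 24 hr with E2.
Wnt2 promoter: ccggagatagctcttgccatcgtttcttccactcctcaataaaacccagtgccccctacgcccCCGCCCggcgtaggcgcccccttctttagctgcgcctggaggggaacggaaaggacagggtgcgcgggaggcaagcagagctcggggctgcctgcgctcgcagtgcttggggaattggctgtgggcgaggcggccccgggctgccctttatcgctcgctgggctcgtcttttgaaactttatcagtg
Wnt11 promoter: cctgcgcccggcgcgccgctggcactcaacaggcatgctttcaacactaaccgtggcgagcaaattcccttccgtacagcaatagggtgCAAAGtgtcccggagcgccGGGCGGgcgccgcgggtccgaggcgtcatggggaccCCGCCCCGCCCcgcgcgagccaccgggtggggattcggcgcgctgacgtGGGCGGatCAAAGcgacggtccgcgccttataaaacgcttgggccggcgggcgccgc
*Wnt2* held 1 GC box, and the *Wnt11* entry shown held 4 GC boxes and 2 TCF/LEF cores, while its other entry held no match. *Wnt7a*, the other ligand that fell, held 6 GC boxes. The *Wnt10b* and *Wnt16* entries held 2 single arms each, with no GC box and no other match. The matches describe the letters of these windows only.

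Among the ligands themselves, the values of *Wnt4* and *Wnt5b* over the 15 arrays had a Pearson correlation of 0.963 and *Wnt2* and *Wnt11* of 0.942. *Wnt5a* and *Wnt5b* had a correlation of -0.845. Pairs with *Wnt10b* are not given, because most of its values were not well above background. The arrays share 5 group means and a scaling factor per array, so these are descriptions without a test. Among 28088 named probes, the genes whose pattern was most like that of *Wnt4* were *Pim3* (0.992), *Myrip* (0.991), and *Zfpm1* (0.991). For *Wnt5a* they were *E130303B06Rik* (0.982), *Ampd2* (0.979), and *Th1l* (0.977), and for *Wnt7a* they were *Gsto2* (0.926), *Lrrc16* (0.924), and *1110006G14Rik* (0.923).

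Other Wnt genes were counted as whole lists by role. Of 8 further ligands that passed the filter, *Wnt9a* was called higher and *Wnt6* lower with E2 at 2 hr, *Wnt3* and *Wnt9a* higher and *Wnt6* lower with E3 at 2 hr, and *Wnt6* lower with E2 at 24 hr. These are 2, 3, and 1 of 8 genes, beside 21.2%, 13.8%, and 18.1% of all probes. *Wnt9a* rose by log2 2.02 ± 0.0927 with E2 and 2.15 ± 0.0927 with E3 at 2 hr, and *Wnt6* fell by 2.32 ± 0.153 with E2 at 24 hr. *Wnt3* was not well above background on any saline array, passed the filter through a group where it was high, and was at least 2.21-fold higher with E3 at 2 hr.

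Of 41 receptors, secretion factors, inhibitors, R-spondins, and feedback targets, 2 were called higher and 11 lower with E2 at 2 hr, beside 10.6% and 10.7% of all probes. With E3 at 2 hr 2 were higher and 10 lower, beside 4.68% and 9.11% of all probes. With E2 at 24 hr 1 was higher and 9 lower, beside 6.94% and 11.1%, and with E3 at 24 hr 1 was higher and 1 lower, beside 1.85% and 1.96%. Their median log2 fold changes in these 4 comparisons were -0.32, -0.44, -0.53, and -0.22, beside -0.08, -0.11, -0.06, and -0.01 over all probes. Of 15 receptors, *Fzd1*, *Fzd2*, *Fzd7*, and *Fzd10* were called lower at 2 hr with both compounds, and *Fzd1* fell by 2.82 ± 0.204 with E3. *Rspo3*, which amplifies Wnt signals at the receptor, fell at 2 hr, with log2 changes of -3.61 ± 0.279 with E2 and -3.41 ± 0.279 with E3, and was also called lower with E2 at 24 hr.

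Of 11 beta-catenin feedback targets, *Nkd2*, *Sp5*, *Rnf43*, and *Lgr5* were called lower at 2 hr with both compounds, beside 10.7% of all probes with E2 and 9.11% with E3. None was called higher, beside 10.6% and 4.68%, with 2 higher at an unadjusted p-value under 0.05 in limma with E2 and 1 with E3, beside 30.7% and 20.9% of all probes. *Sp5* fell by 2.50 ± 0.414 with E2. At 24 hr *Lef1* and *Lgr5* were called lower with E2. Of 10 secreted inhibitors, 2 were called higher (*Frzb*, *Dkk1*) and 2 lower (*Sfrp1*, *Dkk2*) with E2 at 2 hr, 1 higher (*Dkk1*) and 1 lower (*Dkk2*) with E3 at 2 hr, 1 higher (*Dkk1*) and 4 lower (*Sfrp1*, *Sfrp2*, *Wif1*, *Dkk2*) with E2 at 24 hr, and 1 higher (*Dkk1*) with E3 at 24 hr. Of all probes, 10.6% were called higher and 10.7% lower with E2 at 2 hr, 4.68% and 9.11% with E3 at 2 hr, 6.94% and 11.1% with E2 at 24 hr, and 1.85% and 1.96% with E3 at 24 hr. *Wif1*, which binds Wnt proteins outside the cell, fell by 2.09 ± 0.325 with E2 at 24 hr. *Dkk1*, which blocks Lrp5 and Lrp6, was not well above background on any saline array, and passed the filter only through treated groups where it was high. Its calls therefore rest on values near background, with bounds of at least 1.52-fold, 1.23-fold, 1.13-fold, and 1.28-fold in the order E2 2 hr, E3 2 hr, E2 24 hr, and E3 24 hr. It was well above background on 3, 1, 2, and 1 of the 3 arrays of these groups. Of the receptors, *Fzd1* and *Fzd7* were called lower with E2 at 24 hr. *Fzd9* was called higher with E3 at 2 hr and lower by 1.42 ± 0.249 with E3 at 24 hr.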

How the data were processed

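Uterine RNA of 15 mice was hybridized to 1-color whole mouse genome arrays, 1 per uterus. Per the labels, each uterus was homogenized singly, and the submitters' processing notes name Agilent Feature Extraction 9.5. The deposited scanner files hold background-corrected processed signal, an intensity, from the authors' scanner software, and the deposited value table held identical values. The annotation in the headers uses build mm7.

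Control and outlier spots (1893 flagged) were left out, spots of a probe were averaged, and log2 of the deposited intensity minus that of the array's 75th percentile was taken. A probe was kept if some group had 2 or more arrays on which the scanner software marked it well above background, which left 34760 of 41174 (84.4%). Comparisons with the E2 2 hr arrays tested 34751 of these, since missing values removed the others. limma 3.58.1 in R 4.3.3 (lmFit, eBayes) fitted 5 group means. *Wnt5b* was represented by its brighter probe. Precision was limited by 3 arrays per group. The fit was tested on simulated data.

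The ligands and gene lists, the classes, and the motifs were chosen with earlier results of these data known. All 10 ligands are named, as are, with values, the 2 pathway genes with the largest called rise and the 2 with the largest called fall in each comparison with saline, and other called pathway genes by name. Likeness was Pearson correlation over 15 arrays. Alternatives changed background correction (normexp, offset 50), scaling, filters, calling rule, blocks, arrays, and probes. Leaving out arrays by pancreas marker level (above -2 or above -5) was added after seeing the data. Protein sequences were not used here.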

Additional observations from a re-analysis of the deposited data

Results flagged for a closer look

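For 3 ligands the difference between E3 and E2 changed from 2 to 24 hr by the test of that change itself, against 15.5% of all probes. For *Wnt11* it changed by 2.81 log2 units, from -0.54 at 2 hr to 2.27 at 24 hr. For *Wnt2* it changed by 2.04, from -0.28 to 1.76, and it was not called without the 4 pancreas-rich arrays (1.73, adjusted p = 0.0242 in limma). For *Wnt5a* it changed by -1.42, from 0.68 to -0.74, so the compound with the higher value was E3 at 2 hr and E2 at 24 hr.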

How the results depend on the processing

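Of 427 log2 changes of called ligands under other settings, 401 kept their direction and side of the threshold, and 25 kept the direction only. The 1 that reversed was *Wnt10b* between 24 and 2 hr of E3, at 1.03 with normexp background correction. Some settings could change little: the rule without a minimum change keeps every call, the deposited value table held identical values, and other probes concern *Wnt5b* alone. The count of 401 therefore overstates how much was tested. At an adjusted p-value below 0.05 and at least 2-fold, the count of ligands called was 6 for E2 at 2 hr (adding *Wnt10a*) and 4 for E3 at 2 hr (adding *Wnt10b*). It was 4 for E2 at 24 hr (adding *Wnt7b*), 1 for E3 at 24 hr (*Wnt7b*), and 1 for E3 against E2 at 2 hr (*Wnt10a*). In the same order, an adjusted p-value below 0.05 in limma alone held for 61.9%, 49.7%, 61.4%, 34.1%, and 43.3% of all probes. The share that also reached 2-fold was not computed. With a p-value below 0.001 and no minimum change, the count for E3 against E2 at 2 hr was 1 (*Wnt5a*). Without the 4 pancreas-rich arrays, chosen after seeing the data, calls were lost in several comparisons, as given with the ligands. This omission left array 1 alone in the E3 2 hr and E2 24 hr groups. None of the 4 is an E2 2 hr or saline array, so in that comparison only the pooled spread differed. For the other comparisons the cause of the lost calls was not tested.

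Leaving out each array in turn gave 3 to 5 ligands for E2 at 2 hr, 1 to 3 for E3 at 2 hr, 2 to 4 for E2 at 24 hr, 0 to 1 for E3 against E2 at 2 hr, and 2 to 4 for E3 between 24 and 2 hr. The shares of all probes called in these fits were not computed. A change in a count therefore cannot be told apart from a change over all probes. The count was 3 for E2 at 2 hr without saline array 1 or 3 or E2 array 2, and 1 for E3 at 2 hr without saline array 3 or E3 array 2. *Wnt10a* was called for E3 against E2 at 2 hr without E3 2 hr array 1. The class contrast with E2 at 2 hr was 0.28 with *Wnt4* and *Wnt16* as canonical and -0.41 with both as non-canonical. With E3 at 2 hr it was -0.12 with both as non-canonical and 1.05 in the reduced classes, and with E2 at 24 hr it was 1.35 in the reduced classes. Without *Wnt10b*, a choice made after seeing the data, it was -0.37 with E2 at 2 hr.

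Replicate numbers did not pair the arrays, since the median correlation of deviations was 0.03 over 30 pairs of the same number and 0.02 over 60 other pairs. With a replicate block, 4 ligands were called with E2 at 24 hr, 5 with E2 at 2 hr, 3 with E3 at 2 hr, and 0 with E3 at 24 hr. The shares of all probes called in that fit were not computed. With no scaling, the median over all probes between 24 and 2 hr of E2 moved from 0.02 to -0.09. No ligand with an adjusted p-value below 0.05 turned direction under quantile normalization, the other 75th percentile, or no scaling. Signal near background limits *Wnt10b*.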

Other observations

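E3 24 hr array 2 held the highest value of its group for *Wnt7b* (-1.98) and for *Wnt10a* (-1.27). The 7 leukocyte markers averaged -0.45 on E3 24 hr array 3, -0.26 and -1.40 on E3 2 hr arrays 3 and 2, -0.90 on saline array 2, -1.40 on E2 24 hr array 1, and -2.90 to -1.86 on the other 10 arrays. The 6 fat markers averaged -0.84 to 0.07 with E2 at 24 hr and -0.05 to 2.40 with saline. The part of these markers in the ligand values was not tested.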
